A study of Mus musculus with 8 samples.

Results

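The miR-101 pair consists of mmu-miR-101a and mmu-miR-101b, written here as miR-101a and miR-101b, which are encoded at separate loci and differ by few bases. Its 2 members were taken by name from the 567 mouse miRNAs on the array, and both were detected on all 8 arrays. They were chosen by name with their signals on these arrays and the difference between CpG and untreated cells already known, so their levels, differences and ratio in that contrast are given as a description with no test of their own. A later fit over many miRNAs holds both members. Whether they pass its threshold is likewise given only as a description, and nothing is read from it.

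miRNAs were measured in 8 samples of dendritic cells grown from C57BL/6 mouse bone marrow. GM-CSF, which drives marrow precursors towards dendritic cells, was present at 40 ng/ml, and non-adherent cells were taken on day 9. In the 4 CpG samples the cells then stayed overnight with the class B oligonucleotide ODN1826 at 10 µM, a short DNA with unmethylated CG pairs that is sensed by TLR9. The 4 untreated samples had medium alone according to one label and PBS according to another, and no sample received a control oligonucleotide. Such cultures hold a mixture of cells, and in bulk RNA fewer cells of a type and less RNA per cell cannot be told apart. The labels number the replicates alike in both groups but name no separate mice or cultures. Whether arrays of the same number came from the same culture is not stated. A p-value here covers only the spread among the deposited samples, and part of that spread may be technical.

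A miRNA guides Argonaute to messenger RNAs that pair with its seed, bases 2 to 8 counted from its 5′ end, and the paired messages are then repressed or degraded. The miR-101 family is best known for repressing Ezh2, the histone methyltransferase of Polycomb repressive complexes. In macrophages it has also been described as repressing Dusp1, a phosphatase that ends MAP kinase signalling after Toll-like receptor stimulation.

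The mature sequences are shown because the members are so alike that it matters which bases a probe can tell apart. They come from RefSeq (GRCm38.p6), with the seed in capitals.
mmu-miR-101a-3p: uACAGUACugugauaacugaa
mmu-miR-101b-3p: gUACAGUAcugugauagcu
mmu-miR-101c: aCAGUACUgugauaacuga
mmu-miR-144-3p: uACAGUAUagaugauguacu
Counted from the 5′ end of miR-101a, the members share 17 of 18 aligned bases and differ by 1 substitution, A16G, with miR-101a as the first base and miR-101b as the second. The RefSeq entry of miR-101b starts 1 base earlier and ends 3 bases earlier than that of miR-101a. As annotated, the seeds of the members are therefore the same bases read in registers 1 base apart, and the 7 bases of the miR-101a seed begin at base 3 of miR-101b. Among 1679 mature mouse miRNAs in the RefSeq table, each of the 2 seeds occurred once. Bases 2 to 7 of miR-101a were shared only with miR-144, an erythroid miRNA. The 19 bases of miR-101c, annotated on chromosome 9, lie wholly within miR-101a. miR-101c was not analysed here, and RNA of that sequence could not be told from miR-101a.

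The hairpins are shown to place the mature arm, in capitals, in its precursor (RefSeq, GRCm38.p6).
Mir101a: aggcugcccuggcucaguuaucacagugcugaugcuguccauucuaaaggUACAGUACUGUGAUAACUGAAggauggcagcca
Mir101b: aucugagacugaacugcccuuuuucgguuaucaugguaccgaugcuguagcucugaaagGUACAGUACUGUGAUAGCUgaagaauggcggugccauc
Mir101a lies on the minus strand at chr4:101346945-101347027, within the span of the long non-coding gene E130102H24Rik. It is 69451 bases from Ak4 and 81663 bases from Jak1, a kinase of cytokine receptors. Mir101b lies on the plus strand at chr19:29135279-29135375, within the span of the protein-coding gene Rcl1, which acts in ribosomal RNA processing. The array reads the arm of miR-101a that RefSeq calls 3p, since its probes for that arm and for the passenger arm miR-101a* start 36 bases apart, the spacing of the 2 arms in RefSeq. The passenger arm was detected on none of the 8 arrays, with a median of -0.22 intensity units in CpG samples and -0.53 in untreated samples.

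All 8 arrays were on 1 slide. The 75th percentile of signal before scaling lay between 157 and 280.5 intensity units on the CpG arrays and between 101.1 and 143.8 on the untreated arrays, a 1.74-fold difference of geometric means. The 4 control features used here that the array design names hur, each above 1000 units, were 1.15 to 1.23 times as bright on the CpG arrays. The part of array brightness in the unscaled differences was not tested. All 6 myeloid markers were detected on all arrays. They were miR-223, miR-142-3p and miR-142-5p, and also miR-155, miR-146a and miR-147, which serve below as checks of the exposure. Their summed signal was 5141 to 10526 units in CpG samples and 2944 to 3896 in untreated samples. After scaling, miR-223 differed by -0.60 (log2, limma adjusted p = 0.0284), miR-142-3p by -0.20 and miR-142-5p by -0.021. Of the 3 lymphoid markers, 2 were detected on all arrays, miR-181a and miR-181b, while miR-150 was detected on none. All marker sums given here are before scaling. The summed lymphoid signal was 221 to 319 units in CpG samples and 160.5 to 186 in untreated samples, and its part in the results was not tested. After scaling, miR-181a differed by -0.19 and miR-181b by -0.24 (log2, CpG minus untreated), and neither passed. The 3 erythroid markers (miR-451, miR-144 and miR-486) were detected on none, with summed signals of 0.25 to 4.09 units in CpG samples and 0.069 to 3.59 in untreated samples. Of 5 stromal and endothelial markers, miR-10b was detected on 1 CpG array and the others on none, with sums of 1.93 to 6.22 units in CpG samples and 1.54 to 2.40 in untreated samples. The miRNAs miR-155, miR-146a and miR-147, known to follow Toll-like receptor stimulation, all rose in CpG samples (log2 differences 1.92, 0.92 and 0.97, limma adjusted p = 0.00096, 0.0355 and 0.0227). The call was lost in 1 of 31 alternatives for miR-155, in 13 for miR-146a and in 7 for miR-147, whose difference was 0.015 with normexp and the 75th percentile. For miR-146a these included scaling to the median and 6 of the 8 arrays left out singly (all but untreated replicate 3 and CpG replicate 1).

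miR-101a was brighter on every CpG array than on any untreated array before scaling, as were 84 of 212 tested miRNAs (39.6%). It was only partly separated after scaling. Its processed signal, the brightness of its spots after the scanner software's spatial detrending, was 77.8, 95.5, 79.8 and 135 units in CpG replicates 1 to 4, against 32.1, 37.7, 59.1 and 52.4 units in untreated replicates 1 to 4. The highest value was on CpG replicate 4, the array that was also brightest over all miRNAs. As a percentage of each array's own 75th percentile, miR-101a stood at 49.6, 37.9, 44.3 and 48.0 in CpG samples and at 31.7, 30.3, 41.1 and 43.5 in untreated samples. On this scale the groups overlapped, because CpG replicate 2 fell below untreated replicates 3 and 4.

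miR-101b was the more sharply separated of the pair, before and after scaling. Its processed signal was 34.6, 63.6, 48.7 and 72.8 units in CpG samples, against 16.6, 17.9, 25.7 and 14.2 units in untreated samples. As a percentage of the 75th percentile it stood at 22.1, 25.2, 27.0 and 26.0 in CpG samples and at 16.4, 14.4, 17.9 and 11.8 in untreated samples. The CpG arrays lay close together and above every untreated array, and untreated replicate 4 was the lowest. After scaling, 15 of 212 tested miRNAs (7.08%) lay above every untreated array in this way.

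**Figure D1:**
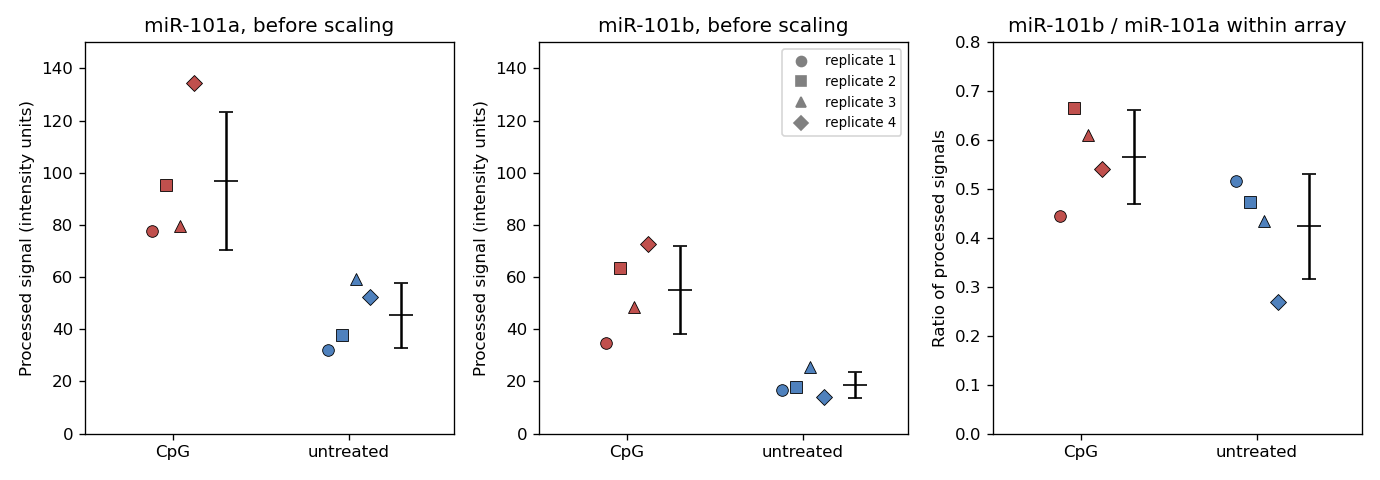
Processed signal of miR-101a and miR-101b before scaling, in intensity units, and the ratio of miR-101b to miR-101a within each array, for 4 CpG and 4 untreated samples. Each marker is 1 array, and bars give the mean and SD. Both miRNAs separate the groups without overlap (lowest CpG values 77.8 and 34.6, highest untreated values 59.1 and 25.7), as did 84 of 212 tested miRNAs upward before scaling (39.6%), while the ratios overlap.

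The within-array ratio of miR-101b to miR-101a does not move when an array is scaled by a single factor, but it can move with background correction or normalization that depends on intensity. Ratios between different probes have no absolute meaning on an array, so that only their change is of use. The ratio was 0.445, 0.666, 0.610 and 0.541 in CpG samples and 0.517, 0.474, 0.435 and 0.270 in untreated samples. CpG replicate 1 fell within the untreated range, and the other 3 CpG arrays lay above it. On the log2 scale the ratio was -0.84 ± 0.25 in CpG samples and -1.28 ± 0.42 in untreated samples (SD, n = 4 each), a difference of 0.44 (SE 0.24). Untreated replicate 4 held the lowest ratio, and without it the difference was 0.24 (SE 0.16). With all arrays it was 0.42 with cyclic loess, 0.25 with quantile normalization and 0.24 with normexp at an offset of 0. With normexp at an offset of 50 it was 0.020 with quantile normalization and -0.026 with the 75th percentile.

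In the fit across the table, scaled log2 values of miR-101b were -1.9997 ± 0.13 in CpG samples and -2.75 ± 0.26 in untreated samples (SD, n = 4 each). Its difference of 0.75 (SE 0.16) corresponds to a 1.68-fold higher level with CpG. Those of miR-101a were -1.16 ± 0.17 in CpG samples and -1.47 ± 0.26 in untreated samples (SD, n = 4 each), a difference of 0.30 (SE 0.17) or 1.23-fold. A value of 0 on this scale is the array's 75th percentile. The median log2 difference of all 212 tested miRNAs was -0.19, and relative to it miR-101b lay at 0.94 and miR-101a at 0.50. Ordered from the highest difference, miR-101b stood 24th and miR-101a 58th of the 212.

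**Figure D2:**
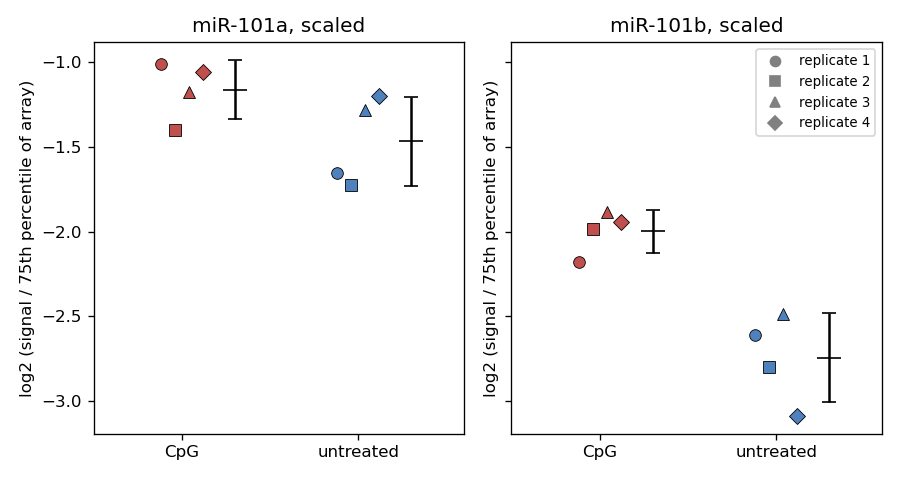
Log2 of the signal over each array's 75th percentile, for miR-101a and miR-101b in 4 CpG and 4 untreated samples. Each marker is 1 array, and bars give the mean and SD. The groups overlap for miR-101a and not for miR-101b, where CpG arrays lie between -2.18 and -1.89 and untreated arrays between -3.09 and -2.48. On this scale 15 of 212 tested miRNAs (7.08%) did not overlap upward.

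miR-101b was the 1 member of 2 past the threshold of an adjusted p of 0.05, where 16 of 212 miRNAs (7.55%) were called higher with CpG. It was likewise the 1 member whose scaled values did not overlap, in the upward direction as for 15 of 212 miRNAs (7.08%). Another 42 (19.8%) did not overlap in the downward direction, which makes 57 (26.9%) in either. Nothing is read from these counts, since the pair was chosen with the contrast known. The call of miR-101b was lost without untreated replicate 2, CpG replicate 2 or CpG replicate 3 (log2 0.73, 0.74 and 0.71). Without scaling the differences were 1.10 (SE 0.27) for miR-101a and 1.54 (SE 0.28) for miR-101b. There both members were without overlap, as were 84 of 212 miRNAs (39.6%), and both passed, as did 88 of 212 upward (41.5%). Scaled on the hur control features, miR-101a was at 0.86 and miR-101b at 1.30, and both passed, with 70 of 212 called higher (33%) and 62 of 212 without overlap upward (29.2%).

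The arrays lay in 2 rows of the slide with 2 arrays of each group in each. In row 1 the log2 difference was 0.39 for miR-101a and 0.79 for miR-101b, and in row 2 it was 0.22 and 0.70. The difference of the log2 ratio was 0.39 in row 1 and 0.49 in row 2. Of the 4 slide columns, 2 held arrays of 1 group only. In the other 2 columns, with 1 array of each group, miR-101b differed by 0.85 and 1.10, while miR-101a differed by 0.66 and by -0.20.

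**Figure D3:**
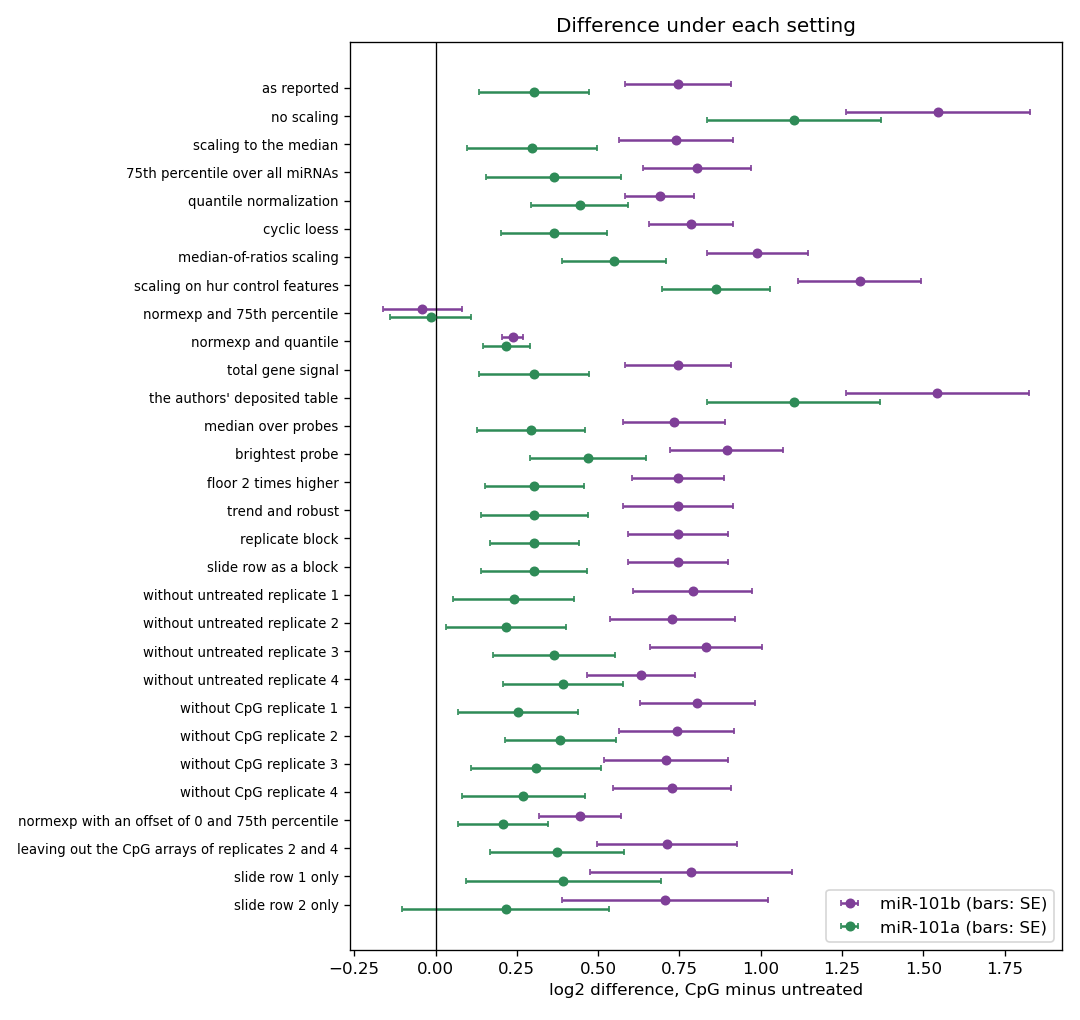
Log2 difference between CpG and untreated samples for miR-101b and miR-101a (points, with SE) as reported and under each alternative processing or left-out array. Both lie above 0 in each setting but normexp with the 75th percentile, where they are -0.040 for miR-101b and -0.015 for miR-101a, and values reach 1.54 and 1.10 without scaling. The higher floor, limma's trend and robust options, and the replicate and slide row blocks could not move the points.

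Each member was read by 2 probes with 10 spots each per array. The array annotation (mm9) places the targets of the miR-101a probes at chr4:101019562-101019581 and chr4:101019562-101019582, which span 20 and 21 bases. Those of the miR-101b probes lie at chr19:29209833-29209849 and chr19:29209832-29209849, spanning 17 and 18 bases. Probe sequences were not used here, and whether RNA of one member binds to the probes of the other was not tested.

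The probes of miR-101a gave like differences. The scaled log2 difference was 0.29 (SE 0.15) on the 20-base probe and 0.32 (SE 0.17) on the 21-base probe. For miR-101b it was 0.74 (SE 0.15) on the 18-base probe. The 17-base probe read 0.75 (SE 0.16), but it was near background on untreated arrays, so that its difference is not exact and adds little to that of the 18-base probe. The log2 ratio of the longer to the shorter probe within an array was 1.98 ± 0.10 in CpG samples and 1.99 ± 0.15 in untreated samples for miR-101b (SD, n = 4 each). For miR-101a it was 0.42 ± 0.040 in CpG samples and 0.40 ± 0.067 in untreated samples (SD, n = 4 each). Neither ratio moved by more than its spread between arrays, and that of miR-101b rests on the dim probe.

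The 17-base probe of miR-101b was the dim one. Its signal was 12.9 to 29.9 units on CpG arrays and 5.76 to 10.4 on untreated arrays. There 39 of 40 spots on CpG arrays and 13 of 40 on untreated arrays were flagged well above background, with 1 of 10 on untreated replicate 1 and 2 of 10 on untreated replicate 4. On the 18-base probe, at 56.3 to 116 units on CpG arrays and 22.5 to 41.0 on untreated arrays, all 40 spots of each group were. The 2 probes of miR-101a were also well above background on every spot, and no spot of either member was saturated. The coefficient of variation among the spots of an array reached 21.4% on CpG arrays and 39.2% on untreated arrays for the dim probe. For the other 3 probes it stayed at or below 9.85% on CpG arrays and 14.01% on untreated arrays. The scanner software's own error of the total signal was 8.45% to 9.03% of the value for miR-101b on CpG arrays and 10.1% to 11.6% on untreated arrays. For miR-101a it was 7.25% to 7.36% on CpG arrays and 7.48% to 8.22% on untreated arrays.

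**Figure D4:**
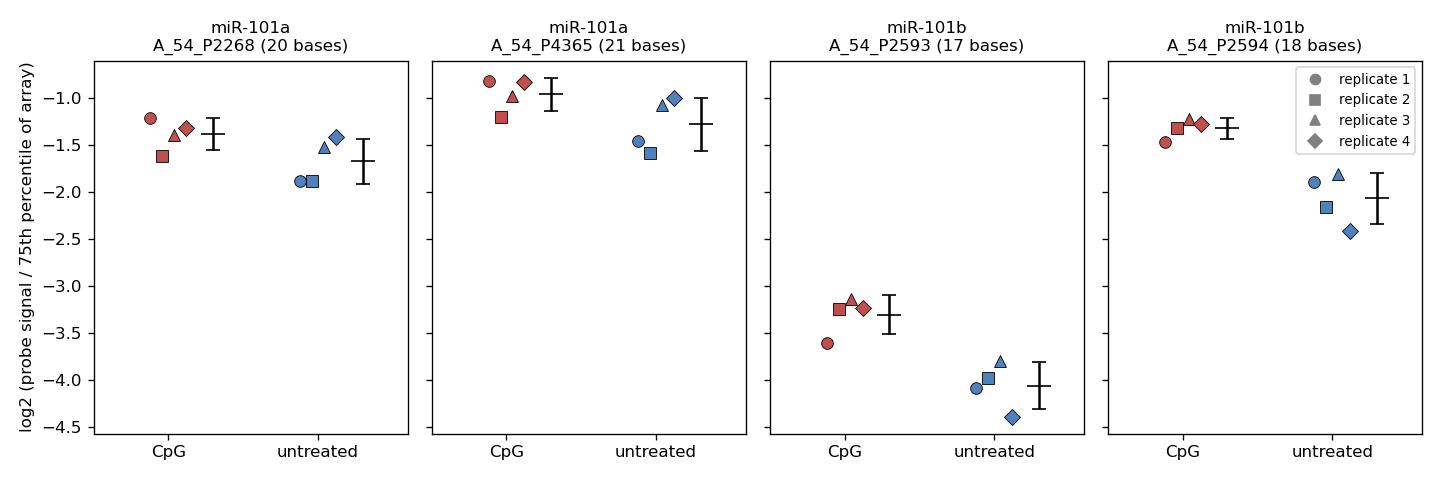
Log2 of each probe's signal over the array's 75th percentile, for the 2 probes of miR-101a and the 2 of miR-101b, in 4 CpG and 4 untreated samples. Each marker is 1 array, and bars give the mean and SD. The groups overlap on both miR-101a probes and on neither miR-101b probe, with differences of 0.29 and 0.32 against 0.75 (17-base probe, near background on untreated arrays) and 0.74.

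How far the members moved together within the groups depended on the scaling. Taking each array's deviation from its group mean removes the difference between CpG and untreated samples. Over the 8 arrays the deviations of miR-101a and miR-101b had a Pearson r of -0.30. They went opposite ways on 5 of the 8 arrays, most on untreated replicate 4, where miR-101a was 0.27 above and miR-101b 0.34 below its group mean. Without scaling, where all miRNAs share the brightness of the array, r was 0.64, against a median of 0.66 between miR-101a and the other 176 miRNAs detected on all arrays. It was also above 0 on the hur control features (0.13), with the brightest probe (0.10) and with normexp and the 75th percentile (0.30).

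miR-155, the product of a transcript that Toll-like receptor signalling induces, had the pattern most like that of miR-101b. Over the 8 arrays their values had r = 0.99, which includes the difference between groups. Their deviations from the group means had a Pearson r of 0.97 and a Spearman rho of 1, the highest r among 176 miRNAs. On CpG arrays 1 to 4 the deviations of miR-101b were -0.18, 0.013, 0.11 and 0.055, beside -0.29, 0.062, 0.16 and 0.070 for miR-155. On untreated arrays 1 to 4 those of miR-101b were 0.14, -0.054, 0.26 and -0.34, beside 0.29, -0.29, 0.51 and -0.51 for miR-155. Without untreated replicates 3 and 4, the arrays where miR-155 deviated most, r was 0.93. It was 0.96 without scaling, 0.95 on the hur control features and 0.82 with scaling to the median, and miR-155 then ranked 12th, 5th and 3rd. For miR-101a and miR-155, r of the deviations was -0.16. That value also depended on the scaling, at 0.56 without scaling, 0.13 on the hur control features and -0.38 with scaling to the median. These coefficients describe 8 arrays, were the highest of many and carry no test.

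**Figure D5:**
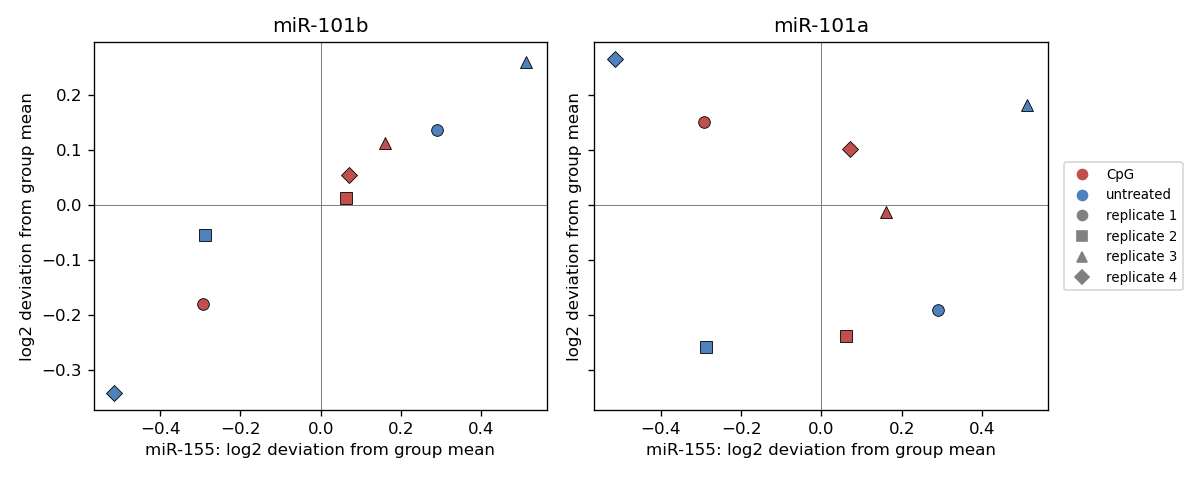
Deviation of miR-101b and of miR-101a from the group mean (log2) against that of miR-155, for 4 CpG and 4 untreated arrays, each marker 1 array. With the scaling as reported, the miR-101b values follow those of miR-155 (r = 0.97) and the miR-101a values do not (r = -0.16). Without scaling, r is 0.96 for miR-101b and 0.56 for miR-101a.

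After miR-155, the miRNAs whose deviations were most like those of miR-101b were miR-346 (r = 0.94), miR-672 and miR-764-5p (0.92 each) and miR-15a* (0.92). By values rather than deviations they were miR-147 (0.94), a miRNA of stimulated macrophages, then miR-674 (0.90), miR-222 (0.89) and miR-22* (0.89). For miR-101a the closest by deviations were miR-324-3p (0.78), miR-26a (0.70), miR-107 (0.69), miR-671-5p (0.60) and miR-689 (0.59). By values they were miR-680 (0.75), miR-135a* (0.74), miR-147 (0.64), miR-222 (0.63) and miR-877 (0.59). No miRNA other than miR-147 and miR-222 was among the nearest 5 by values of both members. These lists depended on the scaling. Without it, none of those named for miR-101b by deviations or for miR-101a by values stayed among the nearest 5. By values of miR-101b, miR-155, miR-147 and miR-22* stayed, and by deviations of miR-101a, miR-324-3p, miR-26a and miR-107 did.

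Of the 5 miRNAs on the array that were listed as related to miR-101 by seed or as its passenger arm, only miR-139-5p could be tested. The seeds of miR-199b and miR-199b* were not compared here. miR-144, miR-199b, miR-199b* and miR-101a* were detected on none of the 8 arrays. miR-139-5p, shown with its seed in capitals because that seed holds the first bases of miR-101a, fell with CpG.
mmu-miR-139-5p: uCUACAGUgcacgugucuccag
Its log2 level was -4.11 ± 0.18 in CpG samples and -3.09 ± 0.25 in untreated samples (SD, n = 4 each). The groups differed by -1.01 (SE 0.17), with a limma adjusted p of 0.00768. Without scaling the difference was -0.21 and did not pass.

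Among other miRNAs known to repress Ezh2, 3 of the 5 on the array could be tested. Of these, 2 were called lower with CpG and 0 higher. Over all tested miRNAs, 14 of 212 were called lower and 30 of 212 (14.2%) in either direction. By unadjusted p under 0.05, 3 of the 3 were lower and 0 higher, where 56 of 212 miRNAs (26.4%) were lower and 85 of 212 (40.1%) differed in either direction. Their median log2 difference was -0.60, beside -0.19 over all tested miRNAs. miR-138 had a level of -4.79 ± 0.50 in CpG samples, where 3 of 4 arrays detected it, and -3.39 ± 0.64 in untreated samples (SD, n = 4 each). It differed by -1.40 (SE 0.34), with a limma adjusted p of 0.0284. The call of miR-138 was lost in 14 of 30 alternatives, among them no scaling (-0.60) and the hur control features (-0.84). miR-26a was at 0.79 ± 0.22 in CpG samples and 1.39 ± 0.18 in untreated samples (SD, n = 4 each). It differed by -0.60 (SE 0.16), with a limma adjusted p of 0.0375. The call of miR-26a held in only 11 of 31 alternatives, and was lost with scaling to the median, quantile normalization and cyclic loess. Its difference was -0.042 on the hur control features and turned to 0.20 without scaling. miR-26b differed by -0.35 and did not pass (limma adjusted p = 0.112), and without scaling it was at 0.44. miR-214 and miR-124 were detected on no array. The members of this list were chosen with earlier results known, and levels of Ezh2 itself were not measured here.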

How the data were processed

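Agilent mouse miRNA arrays were hybridised in 1 colour (Cy3) with total RNA of 4 CpG and 4 untreated samples. Per the file headers, Agilent Feature Extraction 9.5.3.1 made the deposited intensity values, with spatial detrending of the background on and multiplicative detrending off. No scaling between arrays is recorded there. The authors' series table of 260 miRNAs holds the total gene signal, since all 2080 values equalled it within 0.1%, values under 0.01 standing as 0.01. Its use of limma, named in the submitters' processing notes, is not given further in the sources used here.

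Spots without outlier flags were averaged per probe and probes per miRNA. Signals were divided by the 75th percentile that the array gave for 177 mouse miRNAs, those detected on every array, raised to a floor of 0.0107 (log2 of -6.55), and put on the log2 scale. The 212 miRNAs detected on at least 3 of 4 arrays of a group entered a fit in limma 3.58.1 (R 4.3.3) with 2 group means (two-sided, Benjamini-Hochberg over 212, threshold 0.05). The number of arrays limits precision. On simulated data for CpG against untreated, over 212 miRNAs of which 40 were changed (50 runs), the fit found 77.8% of changes of 1 and 98.9% of changes of 2 (log2), with 4.16% of calls false. These shares hold for that number of changed miRNAs. They do not cover changes under 1, where the scaled differences of both members lay.

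The members, both lists and the rule for names (list members, the 5 nearest patterns of each member, and miR-155, miR-146a and miR-147) were chosen with earlier results of these data known. Figures were drawn with matplotlib 3.10.9 under Python 3.11.15.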

Additional observations from a re-analysis of the deposited data

Results flagged for a closer look

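Of 28 groups of 4 arrays checked for an array far from the other 3, which chance gives in about 1 of 20 groups, 1 held such an array. It was not in the miR-101 pair. miR-26a read 0.47 on the log2 scale on CpG replicate 2, where the other 3 CpG arrays lay between 0.88 and 0.94. That array also had the lowest scaled miR-101a value of the CpG group (-1.40), and without it the differences were 0.38 for miR-101a and -0.49 for miR-26a.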

How the results depend on the processing

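Across 29 alternatives the difference was above 0 in all but normexp (offset 50) with the 75th percentile for miR-101a, miR-101b and their log2 ratio, at -0.015, -0.040 and -0.026. That offset is of the size of the members' own signals, and with an offset of 0, chosen after seeing the data, the 3 values were 0.21, 0.44 and 0.24. With normexp and quantile they were 0.22, 0.24 and 0.020. Several alternatives could not move these values. Scaling each array by a single factor leaves the ratio as it is. The higher floor, limma's trend and robust options, and the blocks for replicate or slide row leave all 3 differences as they are. The authors' deposited table is unscaled and nearly repeats the setting without scaling. miR-101a and miR-101b were at 1.10 and 1.54 without scaling, 0.86 and 1.30 on the hur features, 1.10 and 1.54 in the authors' deposited table and 0.55 and 0.99 with median-of-ratios scaling. Leaving out 1 array gave 0.22 to 0.39, 0.63 to 0.83 and, for the ratio, 0.24 to 0.55. miR-101b passed the threshold in 22 of 29 alternatives and miR-101a in 3 of 29. Over the whole table, 0 to 138 miRNAs were called across 31 alternatives. Nothing is read from the members' tallies, since the pair was chosen with the contrast known. The call of miR-101b ended without untreated replicate 2, CpG replicate 2 or CpG replicate 3, without CpG replicates 2 and 4 together, in either slide row alone (these 3 chosen after seeing the data) and with normexp at an offset of 50. Signal over background limits the dim probe of miR-101b.

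The 30 calls (16 higher, 14 lower) became 88 (88 and 0) without scaling, 72 (70 and 2) on the hur features, 87 (87 and 0) in the authors' deposited table, 138 (6 and 132) and 93 (7 and 86) with normexp at an offset of 50 and of 0, 12 (7 and 5) with normexp and quantile, 19 (9 and 10) with quantile, 18 (11 and 7) with the median, 13 (8 and 5) with cyclic loess, 48 (14 and 34) with a floor 2 times higher, 16 (12 and 4) with the brightest probe and 3 (2 and 1) with no filter. Scaling that kept the count near 30 but moved its split gave 17 and 5 (median-of-ratios) and 16 and 7 (75th percentile over all miRNAs). Leaving out 1 array gave 5 to 68 calls, with 5 without untreated replicate 2 or CpG replicate 3, 11 without CpG replicate 2, 12 without untreated replicate 1, 17 without untreated replicate 4 and 68 without CpG replicate 1. Without CpG replicates 2 and 4 there were 4. In slide row 1 alone limma called 0, with 15 at an unadjusted p under 0.05, and in row 2 alone 20. The cause of these moves was not tested.

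The related-seed call of miR-139-5p, 1 as reported, was 0 without scaling and in the authors' deposited table (0 at an unadjusted p under 0.05 in both), and 0 with normexp and quantile, with no filter, without CpG replicates 2 and 4 and in row 1 alone (1 unadjusted in each). The 2 Ezh2-list calls became 1 with the 75th percentile over all miRNAs, the median, the brightest probe, only miRNAs detected on all 8 arrays and row 2 alone. They became 0 on the hur features, without scaling and with the authors' deposited table (0 unadjusted in each), 0 with quantile, no filter and normexp with quantile (3 unadjusted in each), 0 with cyclic loess, median-of-ratios and without CpG replicates 2 and 4 (2 unadjusted in each) and 0 in row 1 alone (1 unadjusted). Leaving out 1 array gave 0 to 2, with 0 when untreated replicate 2, untreated replicate 4, CpG replicate 2 or CpG replicate 3 was left out (2 unadjusted in each) and 1 without untreated replicate 1 or CpG replicate 4. miR-26a turned to 0.20 without scaling and with the authors' deposited table, and miR-26b to 0.44 in both and to 0.20 on the hur features. Of 216 values of named miRNAs outside the pair, 152 kept direction and side of the threshold, 59 no longer passed, 0 newly passed and 5 changed sign. The r of the members' deviations, -0.30 as reported, turned to 0.64 without scaling, 0.63 in the authors' deposited table, 0.30 with normexp and the 75th percentile, 0.13 on the hur features and 0.10 with the brightest probe.

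A replicate block cannot move the differences, since each number has 1 array per group, and can change only their SE. With it the differences of 0.30 for miR-101a, 0.75 for miR-101b and 0.44 for their log2 ratio had SE of 0.14, 0.15 and 0.25, with 38 calls. The array names give each CpG array the number of 1 untreated array. Same-numbered arrays had correlations of their deviations of 0.33, -0.33, 0.36 and 0.22 for numbers 1 to 4. Of the 4 CpG arrays, 2 correlated best with the untreated array of their number. So few arrays cannot decide whether the numbers are pairs, and the main fit did not take them as such.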
